A study of Mus musculus with 8 samples.

Results

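The genes described here encode the core of the mRNA export pathway and Spen, measured in whole mouse embryos that carried 2, 1 or 0 copies of an Ott1 allele with low expression (Ott1 is now named Rbm15). The set held 10 genes, named by role, though chosen with earlier results of these data known. They were the export receptor Nxf1, its partner Nxt1, and the TREX genes Alyref, Thoc1, Thoc2, Thoc5 and Ddx39b. The pore-side factors Ddx19a and Gle1 and the Rbm15 relative Spen completed the set. A gene probe was assigned to a gene when its accession was a RefSeq transcript of that gene. Of the 10 genes, 9 had a probe, 1 each, among 34967 gene probes on the array and 13971 genes with a named probe. No probe was matched to Thoc2, nor to Rbm15 itself, so neither is analysed here and the lowered expression that the labels name could not be checked. The embryos came from matings of mice with the allele and were collected at embryonic day E11.5. Homozygous embryos were numbers 2, 7 and 16, heterozygous embryos were numbers 3, 10 and 15, and wild type embryos were numbers 11 and 13. Strain background, litter and sex are not stated in the labels, and the knockdown allele is described only as of low expression, without its construction. Each array held RNA of 1 embryo, and embryos are the replicates.

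Messenger RNA leaves the nucleus as a particle loaded with proteins. The TREX complex, which joins the THO subunits to the RNA helicase Ddx39b and the adaptor Alyref, is recruited while the transcript is made, capped and spliced, and hands it to the receptor pair Nxf1 and Nxt1, which carries it through the nuclear pore. At the cytoplasmic face the helicase Ddx19 and its activator Gle1, best studied in yeast and human cells, strip the receptor from the RNA. Human RBM15 is known to bind NXF1 and to act in export of some viral and cellular RNAs. Spen shares with Rbm15 its RNA-binding domains and the SPOC domain, and is best known as a transcriptional repressor that recruits Ncor and Hdac3, at Notch targets and on the inactive X chromosome.

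The values are log2 intensities of a one-colour array, after local background subtraction and quantile normalization between the 8 arrays. A step of 1 is a doubling. Between 22526 and 26619 gene probes per array were above background. The median raw intensity was between 61.4 and 87.9 on the 3 homozygous arrays, against 48.3 to 57.6 on the 5 others, so array brightness and homozygosity cannot be told apart. Pairs of arrays correlated at 0.956 to 0.968 where homozygous embryo 16 was one of them and at 0.973 to 0.990 elsewhere. Embryo 16 thus stood apart, and each gene's difference without it is given below. Its array was also the brightest, at 87.9, and had 1634 gene spots flagged and set missing, against at most 616 on any other. Array quality and the embryo itself cannot be told apart there. Of 22 measured markers of 8 embryonic tissues, 21 were above background on all 8 arrays. Of 4 markers of trophoblast and decidua, Prl3b1 and Prl8a2 were above background on 7 of 8 arrays and Tpbpa on 1. Prl3d1 had no usable value on any array, so its level is not known. Prl3b1 averaged 5.60 in homozygous and 7.04 in the other embryos, and Prl8a2 7.12 and 6.59. The 3 liver markers averaged lower in the homozygous embryos, with Afp at 10.06 in homozygous and 10.90 in the other embryos, Ttr at 9.05 and 10.31, and Alb at 6.18 and 7.85. The 3 skeletal muscle markers (Myog at 6.74 in homozygous and 7.83 in the other embryos) and the 3 neuron markers (Stmn2 at 9.95 and 10.53) also averaged lower in homozygous embryos. The 3 cardiac markers (Nkx2-5 at 7.90 in homozygous and 7.30 in the other embryos) and the endothelial markers Pecam1 (7.36 and 7.12) and Kdr (10.39 and 10.10) averaged higher. The part of tissue makeup in the values below was not tested. The Y-linked gene Uty was at 2.17 to 3.60 in homozygous embryo 16 and heterozygous embryos 3 and 15. It was at 6.06 to 6.39 in the 5 others, which include wild type embryos 11 and 13. Low Uty was thus unevenly spread over the genotypes.

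In homozygous embryos, none of the 9 measured genes passed the test against the other 5 embryos. The estimates ran between -0.29 for Thoc1, a THO subunit, and 0.42 for Spen. Thoc1 and Alyref were lower in every homozygous embryo than in any other embryo, as were 9.69% of all probes. Spen was higher in the 2 homozygous embryos where it was read, and 4.96% of all probes were higher without overlap. The receptor Nxf1 spanned 0.23 between its lowest and highest embryo over all 3 genotypes. Differences were tested with limma's linear model and moderated statistics, two-sided, with Benjamini-Hochberg adjustment over all tested probes and a threshold of 0.05. At that threshold 0 of 9 genes were called, and 25 of 23388 probes were (0.107%). At an unadjusted p under 0.05 the counts were 1 of 9 genes, Thoc1, and 20% of all probes. Differences were negative for 6 of the 9 genes and for 60.2% of all probes, and the median difference was -0.077 over the 9 genes against -0.063 over all probes. In RNA of whole embryos, fewer cells of a type and less RNA per cell cannot be told apart.

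**Figure D1:**
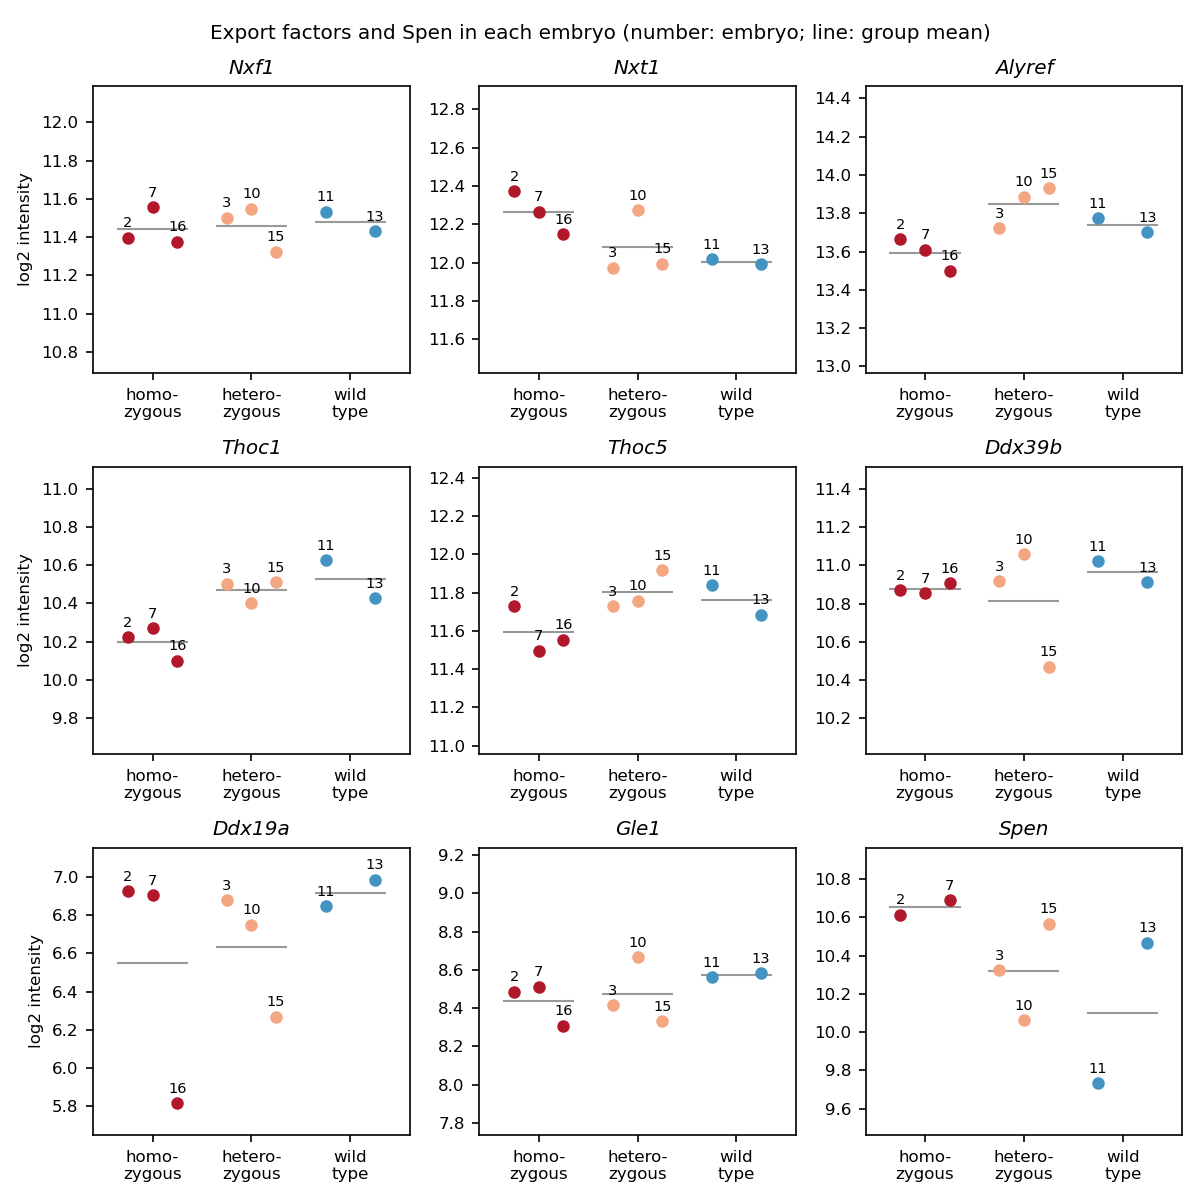
Log2 intensity (vertical axis, 1.5 log2 units in each panel) of each gene in every embryo, with homozygous embryos left, heterozygous embryos in the middle and wild type embryos right; numbers name the embryo and lines are group means. Thoc1 and Alyref in the 3 homozygous embryos sit below all 5 other embryos, as do 9.69% of all probes. Ddx19a has 1 homozygous embryo, number 16, at 5.82.

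The export receptor came first in the comparison, since Rbm15 is known to act with it. Nxf1 (chromosome 19) was at 11.40, 11.56 and 11.38 in homozygous embryos, against 11.501, 11.55 and 11.32 in heterozygous and 11.53 and 11.43 in wild type embryos. The 3 genotypes overlapped, and the lowest single value belonged to heterozygous embryo 15. The log2 difference of homozygous from the other embryos was -0.024 (SE 0.09, 95% interval -0.23 to 0.19, limma adjusted p = 0.904), and 0.011 without embryo 16. Its interval against wild type alone was -0.33 to 0.25, around a difference of -0.038. A difference of 1 log2 unit in either direction therefore lay outside both intervals for Nxf1.

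Nxt1 (chromosome 2), the small subunit that forms a heterodimer with Nxf1, was at 12.37, 12.27 and 12.15 in homozygous embryos, against 11.97, 12.27 and 11.99 in heterozygous and 12.02 and 11.99 in wild type embryos. The homozygous embryos were the highest but for heterozygous embryo 10, which lay within their range. The difference from the other embryos was 0.21 (SE 0.10, interval -0.02 to 0.45, limma adjusted p = 0.288), and from wild type 0.26 (SE 0.14, adjusted p = 0.397). Without embryo 16 the difference from the other embryos was 0.27. The sign of the Nxt1 estimate depended on how the arrays were scaled. With each array scaled to a common median the difference was -0.17, and in the deposited value table it was -0.21. The median of all probes moved to -0.22 and -0.25 under those scalings, against -0.063 here, and Nxt1 stayed above that median in all 19 alternatives.

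Among the TREX genes, the estimates were negative for the adaptor Alyref and for both measured THO subunits and close to 0 for the helicase Ddx39b, and none passed. Alyref (chromosome 11), which bridges TREX to Nxf1, was at 13.67, 13.61 and 13.50 in homozygous embryos, against 13.72, 13.89 and 13.93 in heterozygous and 13.78 and 13.70 in wild type embryos. Every homozygous value was below every other value, though homozygous embryo 2 and wild type embryo 13 were close. The difference was -0.21 (SE 0.09, interval -0.42 to 0.0014, limma adjusted p = 0.252). Against heterozygous embryos alone it was -0.25 (SE 0.11, adjusted p = 0.425) and against wild type -0.15 (SE 0.12, adjusted p = 0.556).

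Thoc1 (chromosome 18), a THO subunit found at transcribed genes, gave the smallest p of the set. It was at 10.22, 10.27 and 10.10 in homozygous embryos, against 10.50, 10.40 and 10.51 in heterozygous and 10.62 and 10.43 in wild type embryos. The groups did not overlap. The difference from the other embryos was -0.29 (SE 0.09, interval -0.50 to -0.09), with an unadjusted p of 0.0101 and a limma adjusted p of 0.168. It was -0.33 against wild type (SE 0.12, adjusted p = 0.285) and -0.27 against heterozygous embryos (SE 0.11, adjusted p = 0.414). Over 19 alternatives the Thoc1 difference ran between -0.61 and -0.25, with adjusted p between 0.109 and 0.337.

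Thoc5 (chromosome 11), the THO subunit known to contact Nxf1, was at 11.73, 11.496 and 11.55 in homozygous embryos, against 11.73, 11.76 and 11.92 in heterozygous and 11.84 and 11.68 in wild type embryos. Homozygous embryos 7 and 16 were the lowest of the 8, and embryo 2 lay among the others. The difference of -0.19 (SE 0.10, interval -0.41 to 0.03, limma adjusted p = 0.295) did not pass. With median scaling the difference was -0.55 for Thoc5, -0.58 for Thoc1 and -0.62 for Alyref, and none passed there. Without homozygous embryo 16 it was -0.17 for Thoc5, -0.25 for Thoc1 and -0.16 for Alyref.

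Ddx39b (chromosome 17), the helicase that loads Alyref onto RNA, was at 10.87, 10.85 and 10.91 in homozygous embryos, against 10.92, 11.06 and 10.47 in heterozygous and 11.02 and 10.91 in wild type embryos. The homozygous embryos were close to each other, and the widest spread was in heterozygous embryos, where embryo 15 was lowest. The difference from the other embryos was 0.0011 (SE 0.14, interval -0.31 to 0.32, limma adjusted p = 0.997). Its sign turned under 6 of 19 alternatives. Without heterozygous embryo 15 the estimate was -0.10, and without homozygous embryo 16 it was -0.014.

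The levels of Alyref and Thoc5 varied together, with a Pearson correlation of 0.85 over the 8 embryos. Thoc1 correlated with them at 0.74 (Alyref) and 0.75 (Thoc5). These values describe the same 8 arrays, in which the homozygous mean was the lowest of the 3 genotypes for each of these genes. The start regions of Alyref and Thoc5 are shown because their levels moved together. Both are RefSeq windows of GRCm38.p6, 250 bases before to 50 bases after the annotated start, read 5′ to 3′ on the gene's strand. Alyref lies at chr11:120598316-120598615 on the minus strand and Thoc5 at chr11:4895093-4895392 on the plus strand. Capitals mark matches to 4 motifs searched on both strands: the CCAAT box (CCAAT), the GC box (GGGCGG), the TATA box (TATAAA) and the E-box (CACGTG).
Alyref: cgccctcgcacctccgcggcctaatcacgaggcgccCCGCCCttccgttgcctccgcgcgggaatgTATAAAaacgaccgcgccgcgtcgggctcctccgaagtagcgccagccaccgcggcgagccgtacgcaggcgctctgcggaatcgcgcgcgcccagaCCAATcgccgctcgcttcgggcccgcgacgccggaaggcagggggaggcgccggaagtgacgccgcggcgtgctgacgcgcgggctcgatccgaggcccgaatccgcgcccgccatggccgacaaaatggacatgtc
Thoc5: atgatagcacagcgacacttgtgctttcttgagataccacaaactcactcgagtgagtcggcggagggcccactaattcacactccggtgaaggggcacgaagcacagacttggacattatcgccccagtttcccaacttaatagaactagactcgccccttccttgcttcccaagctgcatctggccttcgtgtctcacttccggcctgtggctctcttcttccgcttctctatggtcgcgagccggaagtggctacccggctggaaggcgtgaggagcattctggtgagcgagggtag
The Alyref window held 1 CCAAT box, 1 GC box, on the opposite strand and so written CCGCCC, and 1 TATAAA. No match to the 4 motifs was in the Thoc5 window. Of 32851 such windows, 37.4% held CCAAT, 35.7% the GC box, 13.6% TATAAA and 7.15% the E-box. The GC content was 72.3% in the Alyref window and 55.7% in the Thoc5 window, and the median over all windows was 52.7%. The 2 windows thus shared no searched motif.

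At the cytoplasmic side of the pore, neither the helicase nor its activator passed the test. Ddx19a (chromosome 8) was at 6.93, 6.90 and 5.82 in homozygous embryos, against 6.88, 6.75 and 6.27 in heterozygous and 6.85 and 6.98 in wild type embryos. A single embryo, homozygous number 16, set the homozygous mean apart, and the others overlapped. The difference was -0.20 (SE 0.27, interval -0.82 to 0.42, limma adjusted p = 0.705). Without embryo 16 it was 0.18, and with weights for array quality 0.057, so its sign rested on that embryo. Ddx19a had the widest spread of the set, with a within-genotype SD of 0.45 against a median of 0.20 over all tested probes.

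Gle1 (chromosome 2), which in yeast activates the helicase together with inositol hexakisphosphate, was at 8.49, 8.51 and 8.31 in homozygous embryos, against 8.41, 8.67 and 8.33 in heterozygous and 8.56 and 8.58 in wild type embryos. The homozygous and heterozygous embryos overlapped, and both wild type embryos lay inside the range of the heterozygous ones. The difference was -0.077 (SE 0.11, interval -0.32 to 0.17, limma adjusted p = 0.705), and -0.013 without embryo 16. Ddx19a and Gle1 correlated at 0.73 over the 8 embryos, with embryo 16 lowest for both.

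Spen (chromosome 4) was at 10.61 and 10.69 in homozygous embryos 2 and 7, against 10.32, 10.06 and 10.57 in heterozygous and 9.73 and 10.47 in wild type embryos. The spot of homozygous embryo 16 carries a flag, read here as contaminated since the files do not explain it, and was set missing, so the homozygous mean rests on 2 embryos. Both read homozygous values were above all 5 others. The difference from the other embryos was 0.42 (SE 0.22, interval -0.10 to 0.94, limma adjusted p = 0.322), and also 0.42 with the whole array of embryo 16 left out. Against wild type it was 0.55 (SE 0.27, interval -0.10 to 1.20, adjusted p = 0.377).

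The order of the Spen means was homozygous 10.65 ± 0.05 (SD, n = 2), heterozygous 10.32 ± 0.25 (n = 3) and wild type 10.10 ± 0.52 (n = 2), and no neighbours in that order differed beyond the test. Wild type embryo 11, at 9.73, was the lowest of all embryos, and the difference from wild type was 0.19 without it and 0.92 without wild type embryo 13 (interval 0.29 to 1.55, limma adjusted p = 0.621). With the marked spot kept, embryo 16 was at 10.85, the highest of the 8, and the difference from the other embryos was 0.49. The difference was 0.31 with median scaling and 0.29 with the values as deposited. Spen stayed above the median of all probes in all 18 alternatives that gave it a value, by 0.36 to 0.65.

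**Figure D2:**
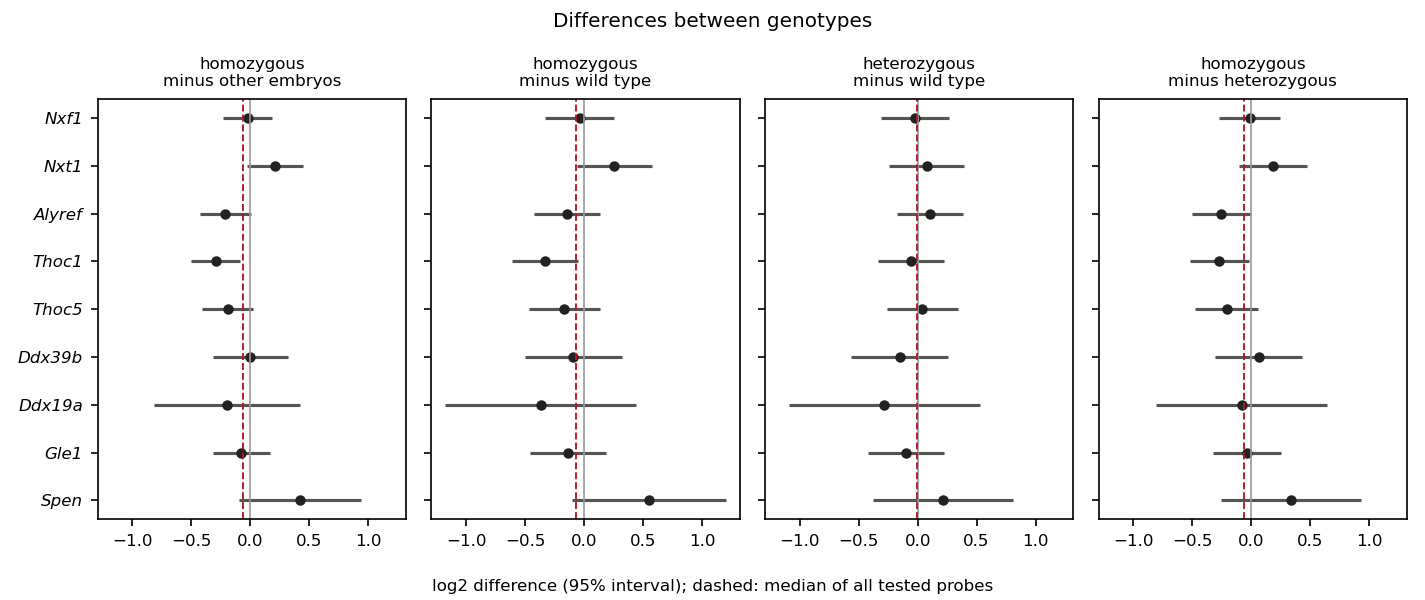
Log2 difference (horizontal axis) of each gene in the 4 comparisons, as points with 95% intervals; the dashed line is the median of all tested probes. In homozygous minus other embryos the Thoc1 interval, -0.50 to -0.09, lies below 0, and the intervals of Ddx19a and Spen are the widest.

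The other 3 comparisons shared these arrays and called none of the 9 genes. In homozygous against wild type embryos 0 of 9 genes and 0.0342% of all probes were called, with limma adjusted p of at least 0.285 for the genes. At an unadjusted p under 0.05 there were 1 of 9 genes, Thoc1, and 15.3% of all probes. In homozygous against heterozygous embryos 0 of 9 genes and 0.0214% of probes were called, and Alyref and Thoc1 were the 2 genes at an unadjusted p under 0.05, against 11.6% of probes. Differences of homozygous from wild type were negative for 7 of the 9 genes and 59.9% of probes, and those from heterozygous embryos for 6 of the 9 and 60% of probes.

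In heterozygous against wild type embryos 0 of 9 genes and 0% of probes were called by limma, and at an unadjusted p under 0.05 there were 0 genes and 2.3% of probes. Differences were negative for 5 of the 9 genes, against 51.5% of probes, and ran between -0.28 for Ddx19a (SE 0.35) and 0.22 for Spen (SE 0.25). Thoc1 differed by -0.054 (SE 0.12) and Alyref by 0.11 (SE 0.12). The mean of Thoc1 was thus lowest in homozygous embryos, at 10.20 ± 0.09 (SD, n = 3), with heterozygous embryos at 10.47 ± 0.06 (n = 3) next to wild type embryos at 10.53 ± 0.14 (n = 2). Alyref averaged 13.59 ± 0.08 in homozygous (n = 3), 13.85 ± 0.11 in heterozygous (n = 3) and 13.74 ± 0.05 in wild type embryos (n = 2).

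For 3 of the 9 genes the homozygous values did not overlap those of the other embryos, against 14.6% of all probes. Thoc1 and Alyref were the 2 that were lower, where 9.69% of probes were, and Spen was the 1 that was higher, where 4.96% were. Spen had only 2 homozygous values, while 21788 tested probes had a value on all 8 arrays. Fewer values overlap less easily, so the Spen share is not a like comparison. The SD within genotypes was under the median of all probes for 7 of 9 genes, with 0.09 for Alyref and Thoc1 at the low end. That median was not matched for probe brightness, and Ddx19a, the dimmest gene at a mean of 6.67, had the widest SD. Intervals for homozygous minus other embryos stayed within 1 log2 unit of 0 for all 9 genes as fitted here. Under the alternatives the intervals of 4 genes went past 1 unit, the farthest to -1.09 for Alyref in the deposited values, -1.02 for Thoc1 there, -1.09 for Ddx19a and 1.21 for Spen without homozygous embryo 2.

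Other genes of the pathway were taken from 5 lists of 88 genes, of which 66 were tested, and 0 were called by limma in homozygous against other embryos. At an unadjusted p under 0.05 there were 10, and 42 of the 66 differences were negative, with a median of -0.057. Over all probes 20% had such a p, 60.2% were negative and the median was -0.063, and each list is set against these shares. In the list of TREX and export adaptors 13 genes were tested. Of these, 10 were negative, against 60.2% of all probes, and 0 had an unadjusted p under 0.05, against 20%. The median was -0.11. Chtop, an arginine-rich adaptor, was highest there at 0.035 (SE 0.09). Zc3h11a, a zinc finger protein that travels with TREX, was lowest at -0.83 (SE 0.52, adjusted p = 0.387), and its homozygous embryos were at 9.58, 9.68 and 7.38, with the low value in embryo 16.

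Of 12 tested export receptors and TREX-2 genes, 3 had an unadjusted p under 0.05, against 20% of all probes. The list had a median of -0.095, and 8 of its 12 genes were negative, against 60.2% of all probes. Among those above background on all arrays, Xpo5, the exporter of microRNA precursors, was highest at 0.55 (SE 0.20, limma adjusted p = 0.192), and Cetn2, a centrin found in TREX-2, lowest at -0.40 (SE 0.13, adjusted p = 0.186). The nuclear pore list, with 23 tested genes, had a median of -0.00021. In it 12 genes were negative and 1 had an unadjusted p under 0.05, against 60.2% and 20% of all probes. Pom121, a membrane nucleoporin, was highest at 0.23 (SE 0.12) and Sec13, a scaffold nucleoporin shared with COPII coats, lowest at -0.26 (SE 0.10, adjusted p = 0.215).

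The cap-binding and exon junction list had 11 tested genes, 9 of them negative, a median of -0.18 and 4 genes at an unadjusted p under 0.05, against 60.2% and 20% of all probes. Ncbp2, the cap-binding subunit, was at 10.17, 10.28 and 9.84 in homozygous embryos, against 10.54, 10.41 and 10.52 in heterozygous and 10.59 and 10.47 in wild type embryos. Its groups did not overlap, and the difference was -0.41 (SE 0.11, limma adjusted p = 0.148). Acin1, a splicing factor of the exon junction, was highest of that list at 0.55 (SE 0.27, adjusted p = 0.287).

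Of 7 tested genes of the Spen family and its repressor partners, 3 were negative and 2 had an unadjusted p under 0.05. The shares of all probes were 60.2% and 20%. The median of the list was 0.083. Rbm15b, which acts with Rbm15 in m6A methylation, was highest at 0.28 (SE 0.08), and at 10.87, 10.82 and 10.93 its homozygous embryos lay above the 5 others, which ran between 10.52 and 10.67. It did not pass (limma adjusted p = 0.163). Hdac3, the deacetylase of the Ncor complex that Spen recruits, was lowest at -0.22 (SE 0.10, adjusted p = 0.2598).

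**Figure D3:**
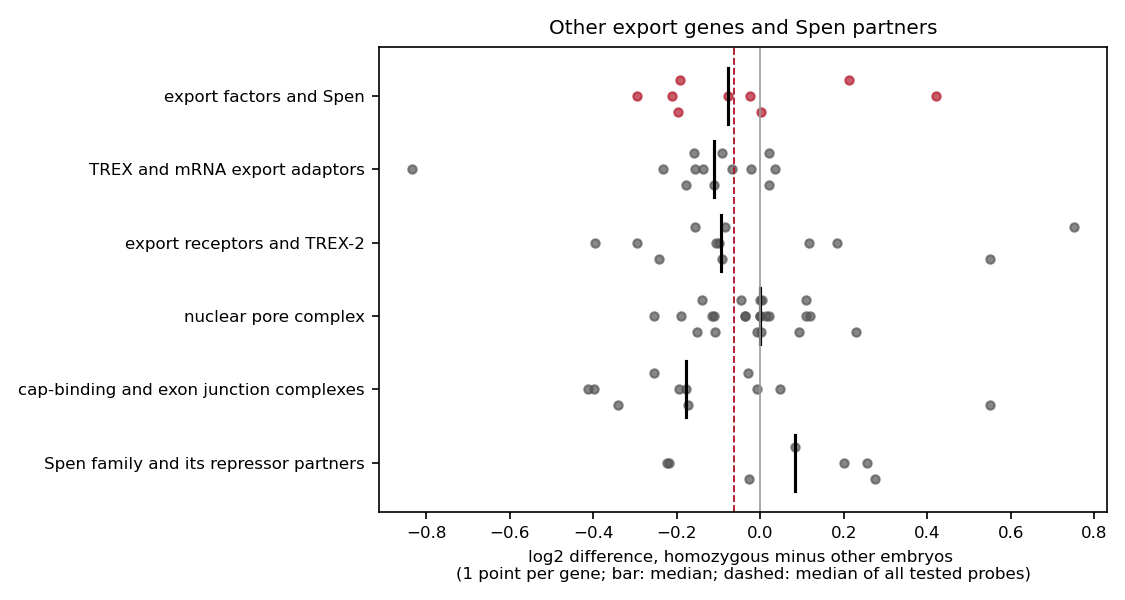
Log2 difference of homozygous minus other embryos (horizontal axis) for every tested gene of the measured set (red) and of the 5 lists (grey), 1 point a gene; short bars are list medians and the dashed line is the median of all tested probes, -0.063. List medians lie between -0.18 and 0.083, and the lowest point is Zc3h11a at -0.83.

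The 3 named genes whose levels followed Nxf1 most closely over the 8 embryos, out of 10838 probes compared, were Scml4 (Pearson r = 0.97), Hap1 (0.97) and Trmt10c (0.96). For Spen, over the 7 embryos with a value and 11227 probes, they were Tln1 (0.97), Zfp94 (0.97) and Igf2 (0.96). Within the set, Nxf1 followed Ddx39b at 0.71 and Gle1 at 0.70, while Thoc1 and Spen ran opposite, at -0.71 over 7 embryos. These correlations describe 8 arrays, in which all pairs share the same embryos.

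The estimates also depended on how the arrays were scaled. With median scaling 8 of 9 genes were negative, with a median of -0.29, and so were 8 of 9 with the values as deposited, with a median of -0.33. Bright probes shifted most: over 3598 probes with a mean above 10, a limit chosen after the data were seen, the median difference was -0.34 with median scaling, -0.37 in the deposited table and -0.014 here. Alyref, Thoc1 and Thoc5 stayed below the median of all probes in all 19 alternatives, and Nxt1 stayed above it in all 19. Nxf1 was at -0.37 with median scaling and -0.40 in the deposited table, against -0.024 here, and did not pass there either.

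**Figure D4:**
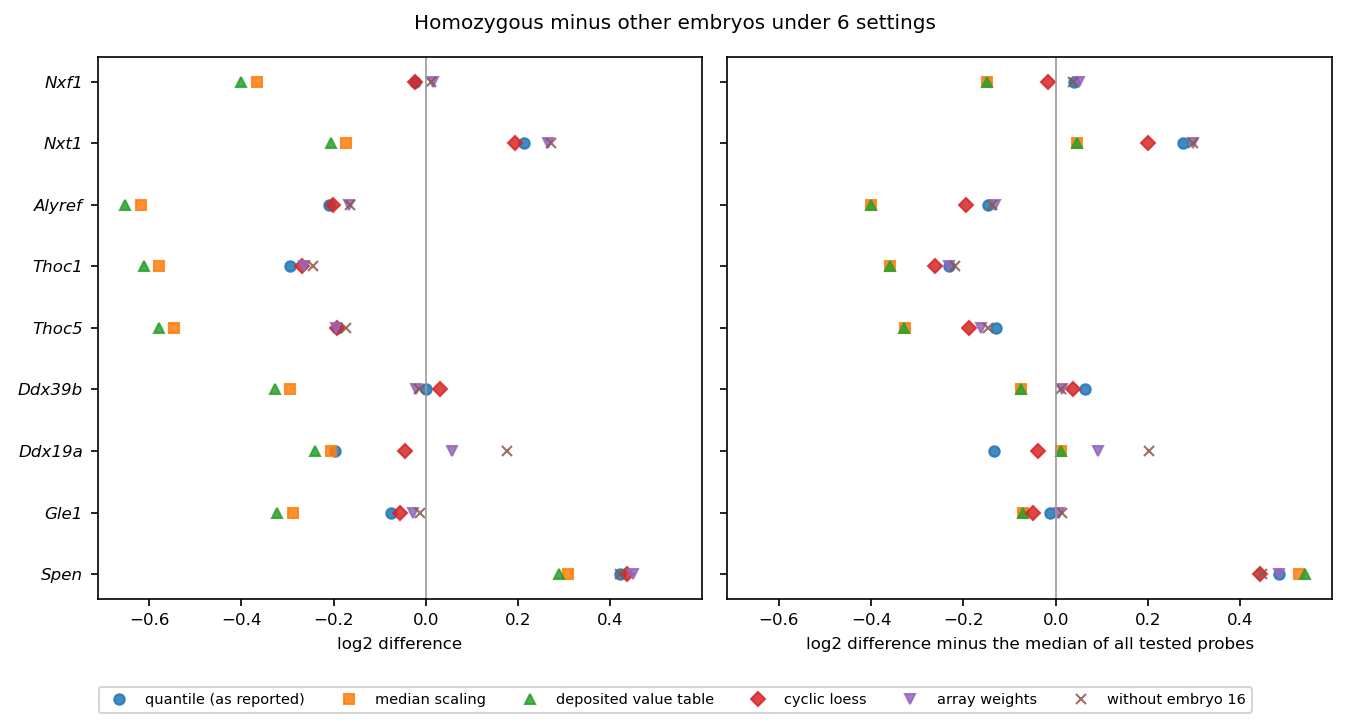
Log2 difference of homozygous minus other embryos for each gene under 6 settings (horizontal axis; left, as estimated; right, minus the median of all tested probes in that setting). Alyref moves between -0.65 and -0.16 on the left and lies below 0 in both panels, while Nxt1 is at -0.17 and -0.21 on the left under the 2 scalings and above 0 on the right.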

How the data were processed

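The 8 arrays hold RNA of 3 homozygous, 3 heterozygous and 2 wild type whole embryos. Per the file headers, each deposited array file gives an intensity per spot, which is the mean of the spot less its local background (median); the deposited value table holds the same intensity divided by 1 factor per array (largest difference 5.0e-08). The scanner software is not named in the labels. Only gene spots were used, and those flagged C, I or M, read here as contaminated, irregular and masked because the files do not explain the letters, 206 to 1634 per array, were set missing. Intensities were quantile normalized with limma 3.58.1 in R 4.3.3, floored at the 5th percentile of positive values (4.50, or 2.17 in log2) and log2 was taken. A probe was tested if every array of 1 genotype or more read it above background (23389 probes). Tests were two-sided, by limma (lmFit, eBayes), with Benjamini-Hochberg adjustment over all tested probes. One model of 3 genotype means gave 3 comparisons and a second set homozygous against the 5 other embryos.

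Probes were named through RefSeq accessions in a gene table of GRCm38.p6, which gave 14763 probes a symbol and left 20204 unnamed. Whether a probe also binds a paralog (Ddx39a, Ddx19b, Alyref2) was not tested. Named were every gene of the set, Rbm15b, the highest and lowest gene of each list among those above background on all arrays, and the 3 genes most like Nxf1 and Spen. A list gene with several probes was taken at the brightest. The genes and lists were chosen with earlier results of these data known. The method was tested on simulated data (21788 probes). Of probes shifted by 1 log2 unit it called 69% against other embryos, 49% against wild type and 53% against heterozygous embryos. For shifts of 2 units the shares were 93%, 86% and 88%. Shifts smaller than 1 unit were not simulated. The results were recomputed with cyclic loess, median scaling, the deposited table, a floor at the 1st percentile, normexp (offset 50), other filters, marked spots kept, array weights, a trended robust prior, a Y-linked covariate, a fit of 2 groups alone, and without each embryo in turn. The number of arrays limits the precision of every value.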

Additional observations from a re-analysis of the deposited data

Results flagged for a closer look

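Among the 5 embryos that are not homozygous, 2 of the 9 genes had 1 embryo far from the 4 others, by a gap test that chance passes in about 1 of 20 groups. The gap test was run on the 9 genes only, so the share of all probes that pass it is not known. The 5 embryos also mix heterozygous and wild type ones. Nxt1 was at 12.27 in heterozygous embryo 10, and the other 4 embryos lay between 11.97 and 12.02. Ddx39b was at 10.47 in heterozygous embryo 15, and the other 4 lay between 10.91 and 11.06.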

How the results depend on the processing

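Of 707 recomputed differences of the 9 genes, 0 passed the threshold and 661 kept their direction, 46 did not; the lowest limma adjusted p was 0.109. The 0 calls among the genes and the lists held in every alternative run for each comparison. No paired analysis was possible because the labels do not state the litter of each embryo. Signs turned as follows; the cause was not tested. With median scaling, homozygous minus other was -0.294 for Ddx39b and -0.172 for Nxt1, homozygous minus wild type -0.116 for Nxt1, and homozygous minus heterozygous -0.232 for Ddx39b and -0.210 for Nxt1. The deposited table gave -0.328, -0.206, -0.150, -0.265 and -0.243 in that order. Array weights gave Ddx19a 0.0571, Nxf1 0.0164 and Ddx39b -0.0210 against other embryos, Nxf1 0.00341 against wild type, and Ddx19a 0.183, Nxf1 0.0296 and Gle1 0.0383 against heterozygous embryos. The Y-linked covariate gave Nxf1 0.00966 for homozygous minus wild type, and for heterozygous minus wild type Ddx19a 0.115, Nxf1 0.0527, Spen -0.0642 and Gle1 0.0294. Cyclic loess gave Ddx19a 0.0675 against heterozygous embryos, and keeping marked spots Ddx39b -0.00869 against other embryos.

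With 1 embryo left out, homozygous minus other ran between -0.383 and 0.176 for Ddx19a, -0.0999 and 0.0458 for Ddx39b and -0.0821 and 0.0106 for Nxf1. Homozygous minus wild type ran between -0.0964 and 0.0153 for Nxf1. Homozygous minus heterozygous ran between -0.270 and 0.294 for Ddx19a, -0.110 and 0.181 for Ddx39b, -0.106 and 0.0608 for Gle1, and -0.0799 and 0.0304 for Nxf1. Heterozygous minus wild type ran between -0.271 and 0.0207 for Ddx39b, -0.0737 and 0.0427 for Nxf1, -0.0219 and 0.128 for Nxt1, -0.149 and 0.584 for Spen, -0.151 and 0.0443 for Thoc1, and -0.0389 and 0.116 for Thoc5.

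Calls over all probes moved more. For homozygous against other embryos, 25 here, there were 42 with loess, 45 in the deposited table, 85 with normexp, 6 with no filter, 50 with probes above background on all arrays, 109 with array weights, 118 with the trended prior and 58 with the Y-linked covariate. For homozygous against wild type, 8 here, there were 27 with median scaling and in the deposited table, 20 with loess, 5 with the lower floor and with marked spots kept, 36 with normexp, 4 with no filter, 208 with array weights, 48 with the trended prior and 0 in a fit of only the groups compared, where 3042 probes had an unadjusted p under 0.05. For homozygous against heterozygous, 5 here, there were 10 with median scaling, 9 with loess, 12 in the deposited table, 11 with normexp, 13 with array weights and 16 with the trended prior. For heterozygous against wild type, 0 here, there were 2 with median scaling and in the deposited table, and 1 with loess, array weights or the trended prior. With 1 embryo left out these counts ran between 5 (without embryo 13 or 15) and 314 (without 7), 0 (without 11) and 42 (without 7), 4 (without 3 or 15) and 58 (without 7), and 0 and 3 (without 10). Against other embryos there were also 6 without 11, 14 without 3 and 39 without 10; against wild type 2 without 13, 4 without 3, 5 without 15 and 21 without 16, and without 11 1605 had an unadjusted p under 0.05; against heterozygous embryos 9 without 16 and 10 without 10. A single remaining wild type embryo is assumed to vary as the other genotypes do.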
